A study of Mus musculus with 2 samples.

Results

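The aldo-keto reductase family 1 of the mouse was followed in adrenal gland through 10 genes taken by symbol from the GENCODE M21 annotation, out of 55536 annotated genes in the deposited tables. All 10 symbols were matched: Akr1a1, Akr1b3, Akr1b7, Akr1b8, Akr1b10, Akr1c6, Akr1c12, Akr1c13, Akr1c14 and Akr1c18. Total RNA came from adrenal glands of male B6CASTF1/J mice aged 10 days, first-generation hybrids of C57BL/6J and CAST/EiJ, and the labels name no edited allele and no treatment. Each of 2 samples gave 1 library from 300 ng of RNA, and the 2 libraries, called biological replicates in the labels, make up a single group: nothing was compared between conditions and no p-value was computed. Expected counts (estimated reads per gene) totalled 38984236 in replicate 2 and 36982665 in replicate 1. The labels give one donor identifier to both samples and conflict on the animal numbers, so it cannot be told whether 2 animals were sampled, and a spread between the libraries may be technical. Levels are given in TPM, transcript abundance scaled for library size and transcript length.

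Aldo-keto reductases are small soluble enzymes that use NADPH to reduce aldehydes and ketones of sugars, lipids and steroids to alcohols, and several also run the reaction in the oxidising direction. The Akr1a enzyme is the broad aldehyde reductase, the Akr1b enzymes are the aldose reductases and their relatives, and the Akr1c enzymes are the hydroxysteroid dehydrogenases that switch steroid and prostaglandin hormones between active and inactive forms. In the adrenal cortex, cutting the side chain of cholesterol releases isocaproaldehyde, which Akr1b7 removes, and Akr1c18 marks the X-zone, a transient inner layer of the mouse cortex.

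The members lie in clusters. In mm10 the 4 Akr1b genes sit within 120.7 kb at chr6:34302434-34423142, in the order Akr1b3 (minus strand), Akr1b8, Akr1b10 and Akr1b7 (plus strand). The 5 Akr1c genes sit within 408.9 kb at chr13:4049011-4457877, in the order Akr1c14 (plus), Akr1c18 (minus), Akr1c13 (plus), Akr1c12 (minus) and Akr1c6 (plus), with Akr1c19 inside this span and Akr1c20 and Akr1c21 just beyond it. Akr1a1 stands alone at chr4:116636510-116651680 on the minus strand. The coding sequence runs to 316 codons in each Akr1b gene, 323 in each Akr1c gene and 325 in Akr1a1, without the stop codon.

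How alike the copies are decides how well reads can be assigned to 1 of them, so the start of the coding sequence is shown for each cluster, from GENCODE M21 transcripts on mm10, the C57BL/6J reference, read 5′ to 3′ from the start codon on the coding strand. For the Akr1c genes, capitals mark bases that differ from Akr1c13 at the same position over the first 120 bases. Akr1c12 differed at 2 of them and Akr1c14 at 46.
Akr1c13: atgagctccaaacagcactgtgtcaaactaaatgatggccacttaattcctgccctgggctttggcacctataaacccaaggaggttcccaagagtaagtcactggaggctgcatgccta
Akr1c12: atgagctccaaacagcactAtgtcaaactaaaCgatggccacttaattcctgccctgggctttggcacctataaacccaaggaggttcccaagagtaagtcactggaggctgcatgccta
Akr1c6: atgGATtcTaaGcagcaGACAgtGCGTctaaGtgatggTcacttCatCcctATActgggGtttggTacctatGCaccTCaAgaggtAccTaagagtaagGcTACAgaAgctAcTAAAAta
Akr1c18: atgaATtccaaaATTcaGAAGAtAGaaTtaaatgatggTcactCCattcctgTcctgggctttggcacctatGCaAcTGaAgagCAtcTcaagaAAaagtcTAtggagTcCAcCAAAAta
Akr1c14: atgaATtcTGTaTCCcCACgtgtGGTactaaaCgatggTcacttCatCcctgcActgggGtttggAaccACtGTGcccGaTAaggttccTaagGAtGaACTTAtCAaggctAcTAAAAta

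For the Akr1b genes, capitals mark bases that differ from Akr1b7, the most abundant member. Akr1b8 differed at 8 of the 120 positions, Akr1b10 at 16 and Akr1b3, the aldose reductase, at 34.
Akr1b7: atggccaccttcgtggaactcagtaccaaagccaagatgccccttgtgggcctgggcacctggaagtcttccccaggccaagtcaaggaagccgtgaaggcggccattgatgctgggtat
Akr1b8: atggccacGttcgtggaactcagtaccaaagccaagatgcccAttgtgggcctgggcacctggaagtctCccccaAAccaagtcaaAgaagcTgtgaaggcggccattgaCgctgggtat
Akr1b10: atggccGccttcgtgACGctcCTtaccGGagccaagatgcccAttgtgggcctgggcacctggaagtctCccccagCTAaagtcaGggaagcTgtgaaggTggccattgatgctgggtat
Akr1b3: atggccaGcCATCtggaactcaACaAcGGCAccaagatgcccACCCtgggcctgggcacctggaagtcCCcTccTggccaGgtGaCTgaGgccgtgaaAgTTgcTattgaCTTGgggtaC

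Over whole aligned coding sequences, identity between pairs of Akr1b genes ran between 70.9% and 89.2%, with the highest value for Akr1b7 and Akr1b10. Pairs of Akr1c genes shared between 71.9% and 96.2% of their bases, and the highest value, for Akr1c12 and Akr1c13, left 37 differences and an identical run of 228 bases (coding bases 34 to 261). Between an Akr1b and an Akr1c gene the identity was 52.9% to 55.9%, and Akr1a1 shared 50.2% to 57.6% with the others.

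**Figure D1:**
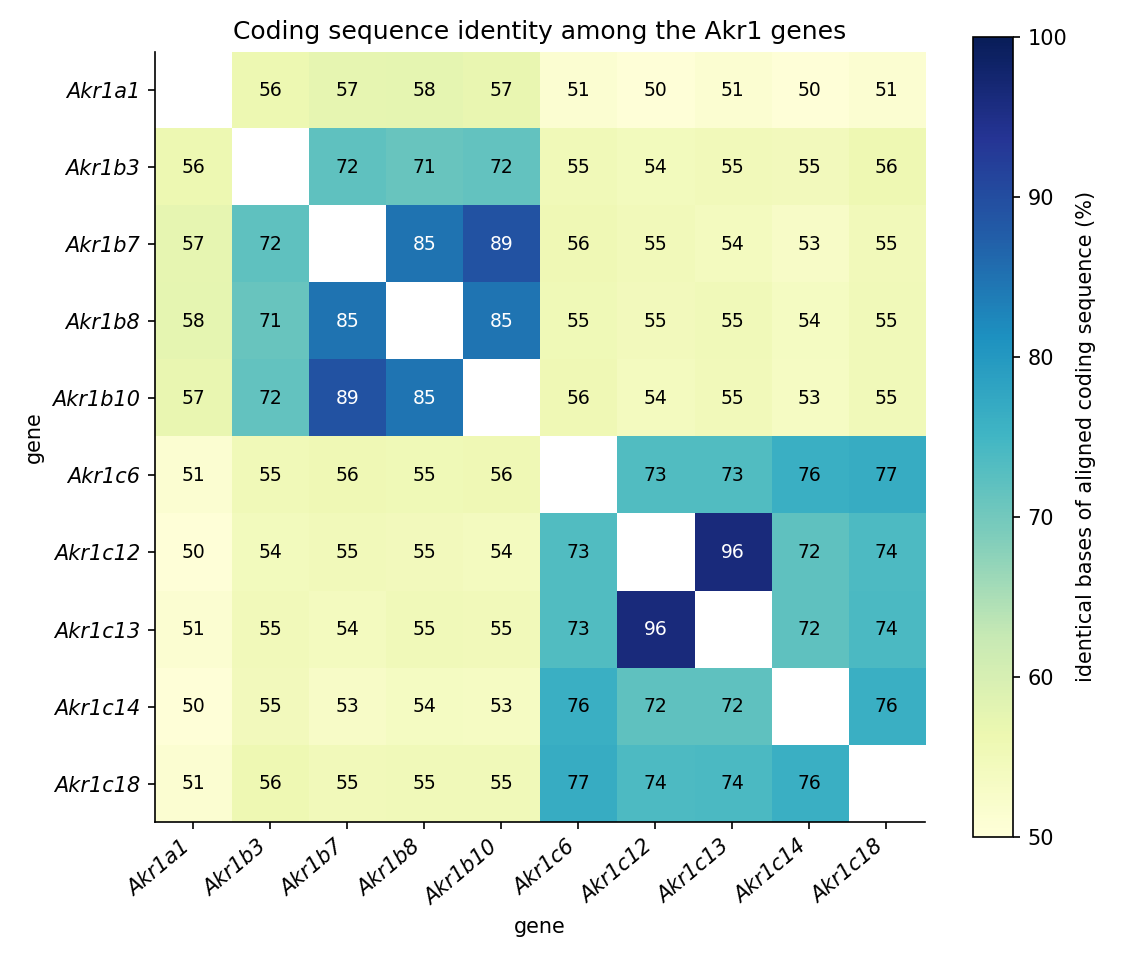
Heat map of coding sequence identity, in percent of aligned bases, between all pairs of the 10 genes, which run along both axes. The 4 Akr1b genes and the 5 Akr1c genes form 2 darker blocks, and Akr1c12 with Akr1c13 is the darkest cell at 96.2%.

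Sequence shared with other genes was counted in stretches of 31 bases on the sense strand of each main transcript. Of the stretches of Akr1b3, 63.5% also occurred in transcripts of other genes, led by the annotated pseudogenes Gm6644 (828 stretches), Gm6736 (763) and Gm12138 (680). Akr1c12 and Akr1c13 shared 39.2% of theirs, all 483 stretches with each other. Akr1b10 shared 14.4%, Akr1b8 10.5% and Akr1b7 10.1%, each most often with another Akr1b gene, and Akr1c6 shared 8.20%, each of those 112 stretches with Akr1c20. The share was 4.27% in Akr1c18, 1.16% in Akr1c14 and 0 in Akr1a1. At a length of 100 bases shared stretches were found for Akr1b3 (50.6%) and for Akr1c12 and Akr1c13 (11.5% each) and for no other member. In the assignment of reads between genes, values of Akr1b3, Akr1c12 and Akr1c13 are therefore less certain than those of the other 7. This concerns shared sequence only. The ratio of gene counts between the deposited quantifications, described below, was lowest for Akr1c18 and highest for Akr1c14.

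Akr1b7 (ENSMUSG00000052131.7, chr6:34412334-34423142) stood at 456 TPM in replicate 2 against 572 TPM in replicate 1, a mean of 514 ± 82.3 TPM (SD, n = 2). It was the highest member in both libraries and ranked 55 of 22015 nuclear protein-coding genes by mean TPM. The level was lower in replicate 2, with a fold of replicate 2 over replicate 1 of 0.809 on TMM-scaled counts and a 95% counting interval of 0.794 to 0.824. The deposited intervals of TPM did not overlap, at 441 to 454 TPM in replicate 2 against 554 to 569 TPM in replicate 1. In both libraries the deposited TPM lay just above its own upper bound, and the deposited posterior mean, 447 TPM in replicate 2 and 561 in replicate 1, lay inside the bounds. Of the 10 members this held for Akr1b7 alone, but it also held in both libraries for the abundant genes Star, Adh1 and Alb. Cortex markers also lay lower in replicate 2, all 9 of 9 on the list, with a median log2 ratio of -0.12, beside -0.31 for Akr1b7. The 5 zona glomerulosa markers lay lower as well, with a sum of 161.3 TPM in replicate 2 against 245.6 TPM in replicate 1. Star, which brings cholesterol to the side-chain cleavage enzyme, stood at 1460 TPM in replicate 2 and 1611 in replicate 1. Akr1b7 amounted to 0.312 of Star in replicate 2 and 0.355 in replicate 1. In bulk tissue fewer cells of a type and less RNA per cell cannot be told apart. The part of cortex, chromaffin or fat content in the lower Akr1b7 level was not tested.

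The other Akr1b genes were far lower and close between libraries. Akr1b3, the mouse aldose reductase, which turns glucose into sorbitol in the polyol pathway, stood at 46.6 TPM in replicate 2 against 48.1 TPM in replicate 1. Akr1b8, a growth-factor-inducible aldehyde and retinal reductase, stood at 39.8 TPM in replicate 2 and 40.3 in replicate 1. Akr1b10 stood at 28.1 TPM in replicate 2 against 30.8 TPM in replicate 1. All 3 had counting intervals of the fold that include 1, the widest being 0.868 to 1.02 for Akr1b10, and their deposited intervals overlapped between libraries. Akr1b7 exceeded Akr1b8 by 11.5-fold in replicate 2 and 14.2-fold in replicate 1, and it exceeded Akr1b10 by 16.2-fold in replicate 2 and 18.6-fold in replicate 1. Akr1b7 made up 79.9% of the summed Akr1b TPM in replicate 2 and 82.8% in replicate 1.

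The copies that share sequence with Akr1b3 drew fewer reads than it did. Akr1b3 held 1692 expected counts in replicate 2 and 1728 in replicate 1, while Gm12138 held 480 in replicate 2 and 537 in replicate 1, and Gm6736 held 217 in replicate 2 and 249 in replicate 1. Gm6644, the copy with most shared sequence, held 5 counts in replicate 2 and 4 in replicate 1. The authors' second quantification, described below, gave Gm12138 fewer counts, 238 in replicate 2 and 249 in replicate 1. It gave Gm6736 240 in replicate 2 and 259 in replicate 1, and Akr1b3 1703 in replicate 2 and 1695 in replicate 1. The deposited posterior SD of the Akr1b3 count was 18.4 in replicate 2, or 1.09% of the count, and 19.0 in replicate 1, or 1.10%. Antisense and overlapping neighbours added little, with 1 count in replicate 2 and 0 in replicate 1 for each of Gm14546, opposite Akr1b3, and Gm13857, opposite Akr1b7. The library kit named in the labels keeps strand, while the strand setting of the counting is not given in the sources used here.

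Akr1a1 (ENSMUSG00000028692.14), the aldehyde reductase that makes L-gulonate for ascorbate synthesis in the mouse, was the second most abundant member. It stood at 219 TPM in replicate 2 and 225 in replicate 1, a mean of 222 ± 4.17 TPM (SD, n = 2), and ranked 226 among protein-coding genes. The fold of replicate 2 over replicate 1 was 0.965 (0.938 to 0.992). The deposited intervals overlapped, at 208 to 222 TPM in replicate 2 against 214 to 228 TPM in replicate 1.

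Akr1c18 (ENSMUSG00000021214.14, chr13:4132615-4150654), the 20-alpha-hydroxysteroid dehydrogenase that inactivates progesterone, led the Akr1c genes. It stood at 127 TPM in replicate 2 against 115 TPM in replicate 1, a mean of 121 ± 8.35 TPM (SD, n = 2), and was higher in replicate 2 by a fold of 1.12 (1.07 to 1.16). Its deposited intervals did not overlap, at 121 to 128 TPM in replicate 2 against 110 to 116 TPM in replicate 1. The other X-zone markers listed were Cyp2f2 at 96.7 TPM in replicate 2 and 99.9 in replicate 1, Thrb at 11.2 TPM in replicate 2 against 9.68 TPM in replicate 1, and Pik3c2g at 1.59 TPM in replicate 2 and 0.61 in replicate 1. Those 3 did not move one way, and the summed level of the list was 109.5 TPM in replicate 2 against 110.2 TPM in replicate 1. Akr1c18 made up 76.2% of the summed Akr1c TPM in replicate 2 and 85.6% in replicate 1.

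The remaining Akr1c genes were low, and their libraries lay further apart. Akr1c6 (ENSMUSG00000021210.16, chr13:4434306-4457877), the mouse type 5 17-beta-hydroxysteroid dehydrogenase, known as a liver enzyme, stood at 17.9 TPM in replicate 2 and 7.39 in replicate 1. Akr1c14 (ENSMUSG00000033715.15, chr13:4049011-4090688), a 3-alpha-hydroxysteroid dehydrogenase that acts on 5-alpha-reduced steroids, stood at 11.7 TPM in replicate 2 against 4.88 TPM in replicate 1. Both were higher in replicate 2, with deposited intervals that did not overlap. The fold was 2.42 (2.14 to 2.75) for Akr1c6 and 2.39 (2.14 to 2.66) for Akr1c14. Akr1c13 stood at 8.29 TPM in replicate 2 and 6.58 in replicate 1, with a fold of 1.32 (1.13 to 1.56) and deposited intervals that overlapped. Akr1c12 stood at 1.77 TPM in replicate 2 against 0.51 TPM in replicate 1 from 76 expected counts in replicate 2 and 22 in replicate 1, with a fold of 3.51 (2.13 to 5.84). The posterior SD of the Akr1c12 count was 4.33% of it in replicate 2 and 7.69% in replicate 1 and had the same size in counts as that of Akr1c13, 3.28 in replicate 2 and 1.67 in replicate 1. Akr1c13 exceeded Akr1c12 by 4.68-fold in replicate 2 and 12.9-fold in replicate 1.

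**Figure D2:**
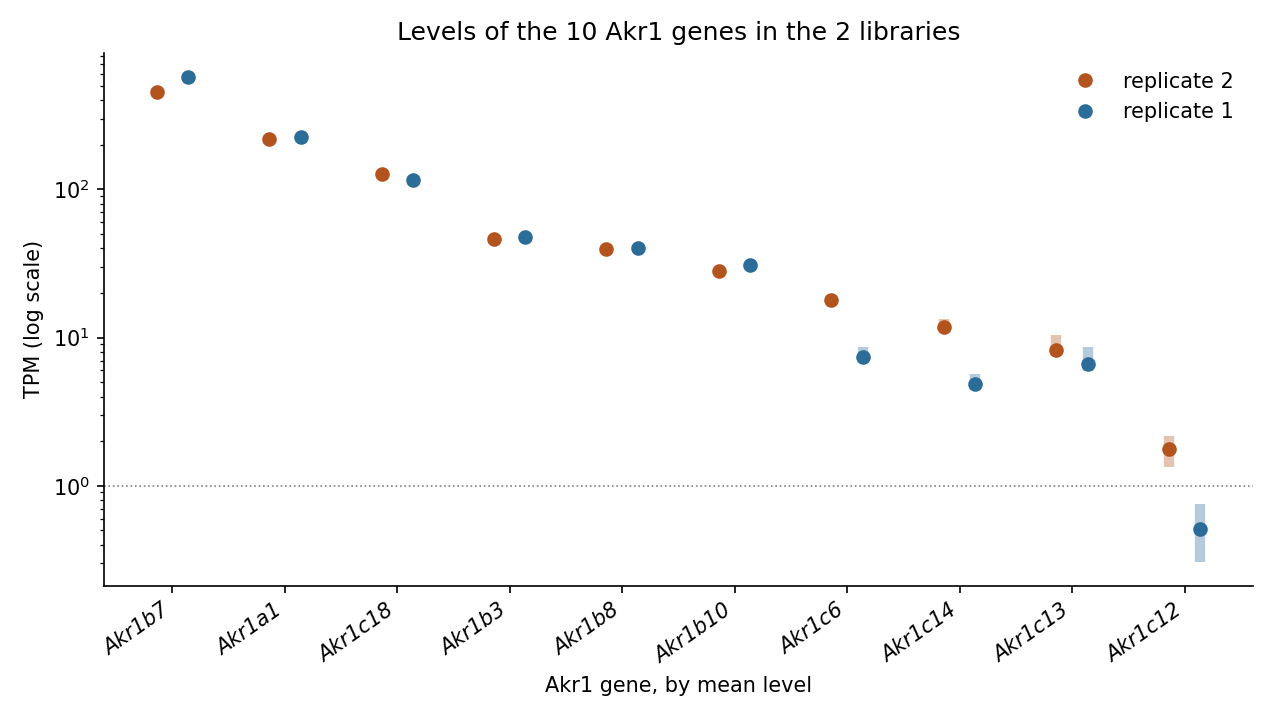
Level of each of the 10 genes in TPM on a log axis, replicate 2 in orange and replicate 1 in blue, with shaded bars for the deposited interval bounds and a dotted line at 1 TPM. Akr1b7 lies highest in both libraries at 456 TPM in replicate 2 and 572 in replicate 1, and Akr1c12 in replicate 1 is the single point under the line, at 0.51 TPM.

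Of the 10 members, 9 reached 1 TPM in both libraries, and Akr1c12 did so in replicate 2. In the order of mean levels, neighbours had ranges over the libraries that did not overlap, with 2 exceptions. Akr1c6 and Akr1c14 overlapped, and Akr1c14 and Akr1c13 overlapped and changed places between the libraries. Akr1b3 and Akr1b8 lay apart by a mean fold of 1.18 and Akr1b8 and Akr1b10 by 1.36, which are small steps. The order of Akr1b3 and Akr1b8 holds for gene-level TPM. On their main coding transcripts alone it was reversed. Akr1b3 then stood at 27.5 TPM in replicate 2 and 28.0 in replicate 1, and Akr1b8 at 39.6 TPM in replicate 2 and 40.3 in replicate 1. The summed TPM of the members was 955.5 in replicate 2 and 1050 in replicate 1. Akr1b7 alone made up 47.7% of it in replicate 2 and 54.5% in replicate 1. The log2 ratio of the Akr1b sum over the Akr1c sum was 1.77 in replicate 2 against 2.36 in replicate 1, a mean of 2.07 ± 0.42 (SD, n = 2).

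Set against all genes, the members' replicate differences were as follows. A mean of at least 100 expected counts was reached by 9 of the 10, Akr1c12 being the exception. More than 2-fold apart in either direction were 2 of these 9, Akr1c6 and Akr1c14, while 4.48% of 13188 genes with that mean count were. Both lay higher in replicate 2, as did 4.37% of the genes tested. The deposited intervals of the libraries did not overlap for 4 of the 9 (Akr1b7, Akr1c18, Akr1c6 and Akr1c14) and for 21.2% of the genes tested. Of the 9, the 4 Akr1c genes had a ratio above 1 and the other 5 below, Akr1b3 reaching 1.00 in the second quantification. Their median log2 ratio was -0.00, against -0.005 over all genes tested. All counting intervals cover counting error only, because each replicate is 1 library. Spread between samples or library preparations and error in assigning reads are left out. Reads carry no molecular identifiers, so amplified copies of a molecule are not told apart.

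Both libraries carried the markers of the labelled tissue, with all 9 cortex markers (summed 6109 TPM in replicate 2 against 6997 TPM in replicate 1) and all 5 chromaffin markers (1236 TPM in replicate 2 and 1484 in replicate 1) above 1 TPM. Markers of other tissues were present too. Each of the 8 liver markers lay higher in replicate 2, by 2.85-fold to 3.86-fold, and their summed level was 13898 TPM in replicate 2 against 4429 TPM in replicate 1. Albumin (Alb), a liver-made plasma protein, stood at 6173 TPM in replicate 2 and 2046 in replicate 1, Ahsg, a plasma protein, at 2421 TPM in replicate 2 against 719.5 TPM in replicate 1, and Trf, transferrin, at 2305 TPM in replicate 2 and 729.5 in replicate 1. The 4 skeletal muscle markers also lay above 2-fold in that direction, with a sum of 559.5 TPM in replicate 2 against 201.7 TPM in replicate 1. Granulocyte markers summed to 75.8 TPM in replicate 2 and 23.7 in replicate 1, both of those with enough counts lying more than 2-fold higher in replicate 2. Macrophage markers summed to 31.6 TPM in replicate 2 and 19.1 in replicate 1, and all 4 were higher in replicate 2, 1 of them by more than 2-fold. Brown fat markers summed to 3028 TPM in replicate 2 and 3425 in replicate 1, and adipocyte markers to 2500 TPM in replicate 2 and 2499 in replicate 1. Kidney markers summed to 0.25 TPM in replicate 2 against 0.28 TPM in replicate 1, with 3 of 4 at 0 expected counts. The median marker fold was 3.33 for liver, 2.75 for skeletal muscle, 3.15 for granulocyte and 1.66 for macrophage. The fold was 2.42 for Akr1c6, 2.39 for Akr1c14, 2.42 for Akr1c20 and 3.51 (2.13 to 5.84) for Akr1c12. The part of liver, muscle, granulocyte or macrophage RNA in the values of Akr1c6, Akr1c14, Akr1c12 and Akr1c20 was not tested. Nor was the part of fat RNA in the values of Akr1b7 and the other members.

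**Figure D3:**
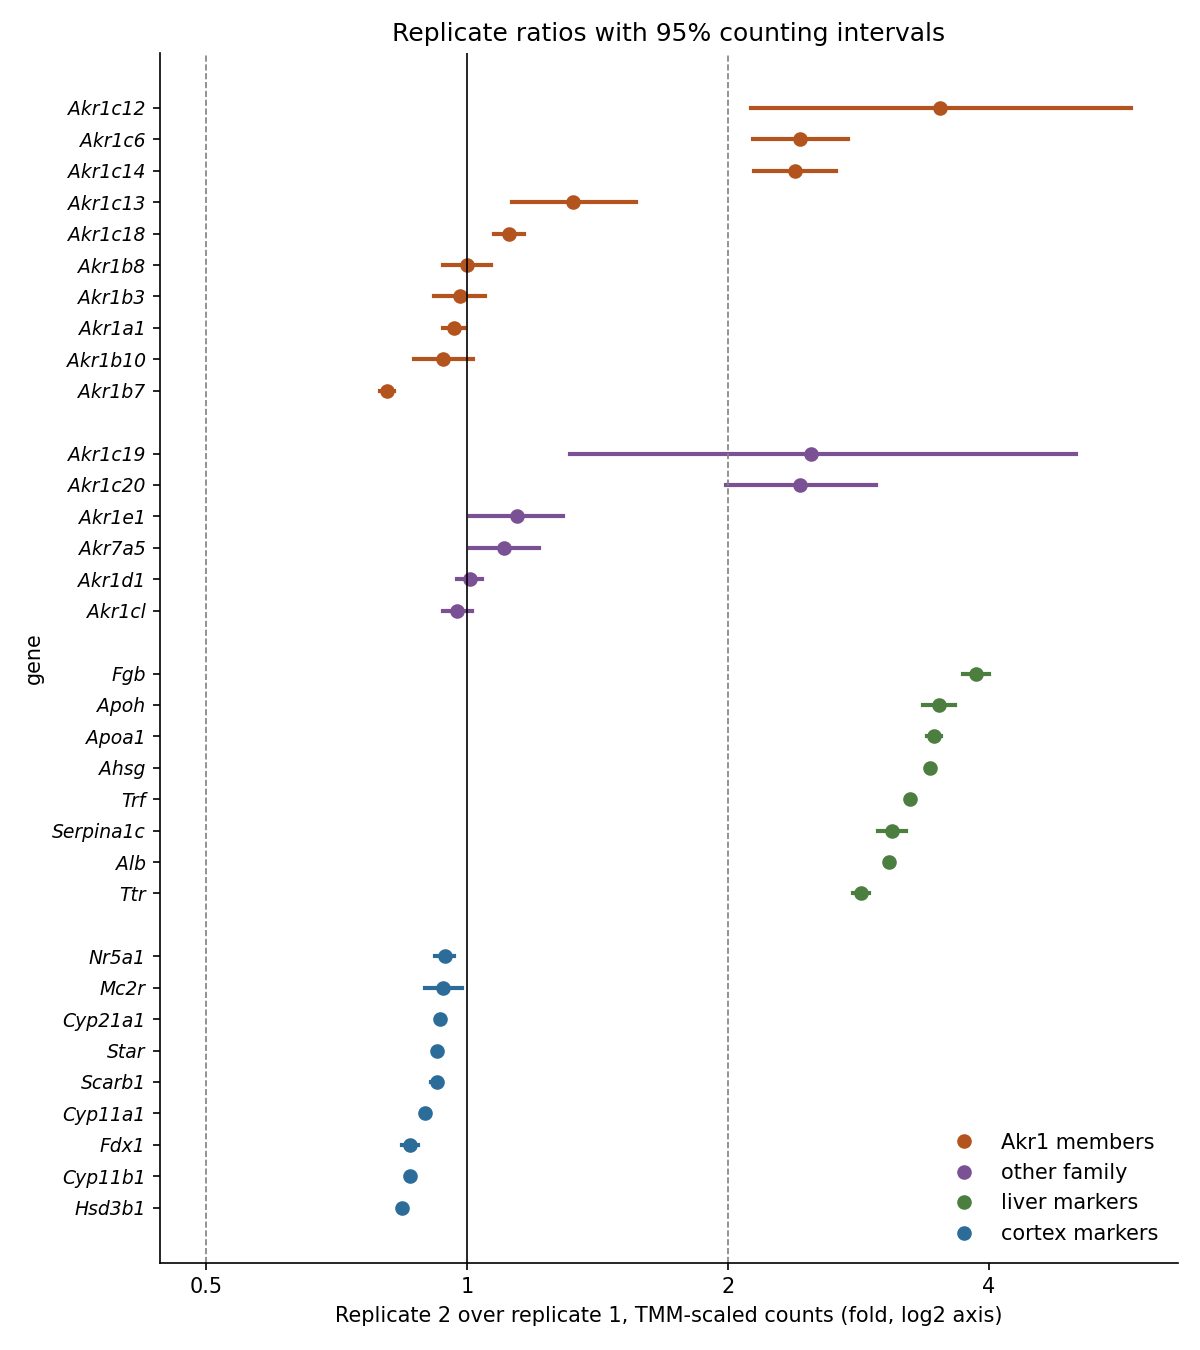
Fold of replicate 2 over replicate 1 on TMM-scaled counts (log2 axis) for the members, their relatives, liver markers and cortex markers, with bars for 95% counting intervals and dashed lines at 2-fold. Akr1c12, Akr1c6 and Akr1c14 and the relatives Akr1c19 and Akr1c20 lie to the right of the 2-fold line with all 8 liver markers, the interval of Akr1c19 and that of Akr1c20 reaching below it, and Akr1b7 lies left of 1 with all 9 cortex markers.

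Other genes of the family gave a comparison within the same libraries. Akr1cl stood at 87.3 TPM in replicate 2 and 92.0 in replicate 1. Akr1d1, the 5-beta-reductase of steroid and bile acid metabolism, best known from liver, stood at 69.3 TPM in replicate 2 against 69.7 TPM in replicate 1. Both were above Akr1b3 in both libraries and lay within 2-fold between them. Akr7a5, an aflatoxin aldehyde reductase, stood at 22.3 TPM in replicate 2 and 20.5 in replicate 1, and Akr1e1, a reductase of 1,5-anhydrofructose, at 10.7 TPM in replicate 2 against 7.89 TPM in replicate 1. Akr1c20, whose coding sequence is 92.3% identical to that of Akr1c6, stood at 8.83 TPM in replicate 2 and 3.40 in replicate 1. Its fold was 2.42 (1.99 to 2.96), beside the same value for Akr1c6. Akr1c19 stood at 0.73 TPM in replicate 2 against 0.31 TPM in replicate 1 from 35 counts in replicate 2 and 14 in replicate 1. Akr1c21, a kidney hydroxysteroid dehydrogenase, was at 0 expected counts in each library, where a true level of up to 3 counts could be missed. The second quantification, described below, gave Akr1c21 2 estimated counts in each library. Of these 7 genes, 5 had a mean of at least 100 counts and 1 of the 5 (Akr1c20) lay more than 2-fold apart, beside 4.48% of all genes tested.

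The deposited transcript values showed which annotated forms carried each gene, among 33 annotated transcripts of the members, 17 of them protein-coding. Akr1b7 and Akr1c12 have 1 annotated transcript each. The coding transcript of 1420 bases held 87.8% of the Akr1a1 TPM in replicate 2 and 90.9% in replicate 1, and a processed transcript of 412 bases held 11.4% in replicate 2 and 8.32% in replicate 1. Because TPM divides by length, that short form took 2.94% of the gene's counts in replicate 2 and 2.09% in replicate 1. For Akr1b3 the coding transcript of 1387 bases held 59.1% in replicate 2 and 58.3% in replicate 1, and a retained-intron form of 554 bases held 39.5% in replicate 2 and 39.9% in replicate 1. Both libraries thus gave nearly the same division for these genes. The main coding transcript of Akr1b10, of 1371 bases, held 56.3% in replicate 2 and 56.6% in replicate 1, with 31.7% in replicate 2 and 25.3% in replicate 1 on a form annotated for nonsense-mediated decay. The main Akr1c18 transcript, of 1200 bases, held 88.1% in replicate 2 and 89.7% in replicate 1. The 2 coding forms of Akr1c14 were closer, that of 2436 bases holding 58.1% in replicate 2 and 55.7% in replicate 1 and that of 3183 bases holding 40.5% in replicate 2 and 44.3% in replicate 1.

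A second deposited quantification, made from the reads and an index, gave other divisions. It put the main Akr1a1 transcript at 58.4% in replicate 2 and 62.0% in replicate 1, and that of Akr1b3 at 33.2% in replicate 2 and 32.2% in replicate 1. The decay form of Akr1b10 held 2.60% in replicate 2 and 1.75% in replicate 1 in the second quantification, while that of Akr1c13 held 44.5% in replicate 2 and 43.5% in replicate 1, against 12.4% in replicate 2 and 21.3% in replicate 1 in the first. For Akr1c14 the order of the 2 coding forms was reversed in both libraries. The form of 3183 bases held 46.2% in replicate 2 and 51.7% in replicate 1. That of 2436 bases held 22.0% in replicate 2 and 36.3% in replicate 1. Counted in reads, the main Akr1a1 transcript held 92.3% in replicate 2 and 92.8% in replicate 1 in the second quantification, against 95.7% in replicate 2 and 96.6% in replicate 1 in the first, so the gap was far smaller than in TPM. For Akr1b3 the read shares were 66.5% in replicate 2 and 65.1% in replicate 1 in the second, against 77.8% in replicate 2 and 76.5% in replicate 1 in the first. For whole genes, the second count over the first was lowest for Akr1c18, at 0.870 in replicate 2 and 0.863 in replicate 1, and highest for Akr1c14, at 1.14 in replicate 2 and 1.12 in replicate 1, against medians over genes with the same mean count of 1.09 in replicate 2 and 1.07 in replicate 1. Between the quantifications the TPM share of the main transcript moved by more than the spread between the libraries for 7 members. Of the other 3, Akr1b7 and Akr1c12 have 1 annotated transcript each, so their share could not move. Akr1b8, with 2 annotated forms, could have moved and did not. The cause was not tested.

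**Figure D4:**
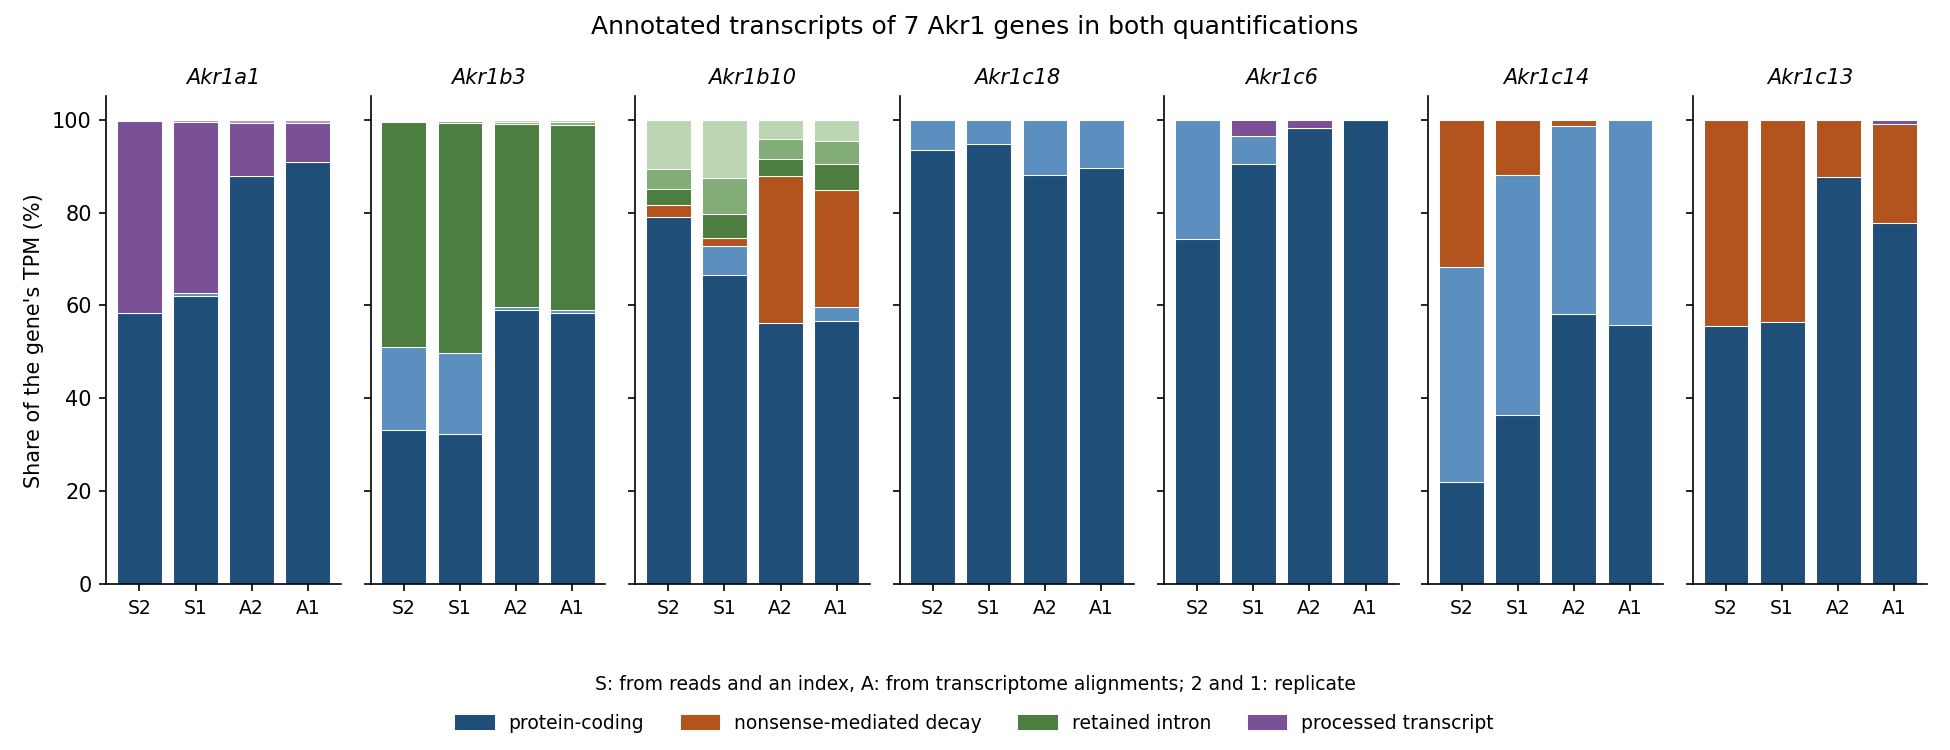
Share of each gene's TPM (percent) held by its annotated transcripts for 7 members, coloured by biotype, with separate bars for the second quantification (S2, S1) and the first (A2, A1) in replicates 2 and 1. Bars of the same quantification look alike between replicates for Akr1a1 and Akr1b3, and the protein-coding share of Akr1a1 is 58.4% in S2 against 87.8% in A2.

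Promoters were searched because Akr1b7 is known to depend on the cortex factor NR5A1 (SF-1), which stood at 109.8 TPM in replicate 2 and 118.8 in replicate 1. RefSeq windows (GRCm38.p6) of 250 bases before and 50 after the start site were given for 9 of the 10 members, Akr1b3 being without one. The NR5A1 half-site AAGGTCA was searched on both strands and occurred in 2 of the 9, Akr1b7 and Akr1b10, and in 4.66% of 27025 mouse promoters of that length. Both matches are on the strand opposite the gene, so they read as the reverse complement below, where capitals mark them in the 250 bases before the start site of Akr1b7 (chr6:34412112-34412361, plus strand) and of Akr1b10 (chr6:34383997-34384246, plus strand).
Akr1b7 promoter: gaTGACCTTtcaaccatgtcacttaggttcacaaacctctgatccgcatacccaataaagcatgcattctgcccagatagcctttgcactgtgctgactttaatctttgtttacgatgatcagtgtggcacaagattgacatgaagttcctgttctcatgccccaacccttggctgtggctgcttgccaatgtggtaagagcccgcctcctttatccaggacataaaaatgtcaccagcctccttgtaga
Akr1b10 promoter: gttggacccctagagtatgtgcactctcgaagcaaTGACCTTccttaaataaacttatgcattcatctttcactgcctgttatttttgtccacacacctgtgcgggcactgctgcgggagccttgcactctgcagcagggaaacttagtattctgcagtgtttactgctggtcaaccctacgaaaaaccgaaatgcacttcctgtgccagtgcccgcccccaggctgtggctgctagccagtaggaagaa
The matches begin 248 bases before the start site in Akr1b7 and 215 bases before it in Akr1b10, the genes with most and least TPM of the Akr1b cluster. TATAAA occurred in Akr1b8 and Akr1c6 and in 14.2% of all promoters. Its match began 159 bases before the start site in Akr1b8, on the strand opposite the gene, and 164 bases before it in Akr1c6. The cAMP response element TGACGTCA (1.88% of all promoters), its half-site TGACG (21%), which lies within the full element, and the antioxidant response core TGACNNNGC (12.5%) were in none of the 9 windows. These matches describe letters in a window and no binding was measured.

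The pathways around the enzymes were read from gene lists. In the polyol pathway all 6 genes reached 1 TPM in both libraries and none lay more than 2-fold apart, with a median log2 ratio of 0.08. Sord, which turns the sorbitol of Akr1b3 into fructose, stood at 42.1 TPM in replicate 2 against 22.7 TPM in replicate 1. It lay below the gene-level TPM of Akr1b3 in both libraries. The coding Akr1b3 transcript of 1387 bases alone stood at 27.5 TPM in replicate 2 and 28.0 in replicate 1. Sord lay above that level in replicate 2 and below it in replicate 1. Hk2, which competes with Akr1b3 for glucose, stood at 39.4 TPM in replicate 2 and 38.8 in replicate 1, Khk, the fructose kinase, at 29.7 TPM in replicate 2 against 20.4 TPM in replicate 1, and Gfpt1, which leads glucose into hexosamines, at 11.7 TPM in replicate 2 and 11.1 in replicate 1.

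In the glucuronate and ascorbate list, which holds the steps around Akr1a1, 7 of 8 genes reached 1 TPM in both libraries and 3 of 7 with enough counts passed the 2-fold threshold, all upward in replicate 2, where 4.37% of all genes tested did so. The median log2 ratio of the 7 was 0.38. The 3 were Rgn, the gluconolactonase, at 24.7 TPM in replicate 2 against 9.76 TPM in replicate 1, Gulo, the last enzyme of ascorbate synthesis, at 19.5 TPM in replicate 2 and 6.70 in replicate 1, and Xylb, a xylulose kinase, at 4.70 TPM in replicate 2 against 1.68 TPM in replicate 1. Akr1a1 lay above each of them in both libraries, and its own fold was 0.965. Ugp2 stood at 34.5 TPM in replicate 2 and 28.7 in replicate 1, Ugdh at 15.9 TPM in replicate 2 against 15.3 TPM in replicate 1, and Gusb at 13.6 TPM in replicate 2 and 13.9 in replicate 1. The liver markers given above moved in the same direction as the 3, and their part was not tested.

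In the aldehyde removal list all 13 genes reached 1 TPM and none lay more than 2-fold apart, with a median log2 ratio of 0.10. Adh1, an alcohol dehydrogenase, stood at 1085 TPM in replicate 2 against 1238 TPM in replicate 1, above Akr1b7 in both. Aldh2, the mitochondrial acetaldehyde dehydrogenase, stood at 277.9 TPM in replicate 2 and 265.4 in replicate 1, between Akr1b7 and Akr1a1. Adh5 stood at 69.4 TPM in replicate 2 against 68.6 TPM in replicate 1, and Cbr1, a carbonyl reductase, at 43.7 TPM in replicate 2 and 45.8 in replicate 1. In the NRF2 list, the oxidative stress targets to which several AKR1 genes belong in human, 8 of 9 genes reached 1 TPM and none of 7 lay more than 2-fold apart, with a median log2 ratio of 0.19. Its highest members were Srxn1 at 58.9 TPM in replicate 2 against 66.8 TPM in replicate 1, Gclm at 33.8 TPM in replicate 2 and 26.6 in replicate 1, Txnrd1 at 29.4 TPM in replicate 2 against 30.5 TPM in replicate 1, and Nfe2l2 itself at 31.2 TPM in replicate 2 and 28.1 in replicate 1.

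The steroid reduction and oxidation list holds Srd5a and Hsd17b genes and Dhrs9. Whether each of their enzymes acts on the same steroids as the Akr1c enzymes was not tested. Of its 13 genes 11 reached 1 TPM, and 2 of 11 with enough counts were more than 2-fold higher and 1 more than 2-fold lower in replicate 2, while 4.48% of all genes tested lay that far apart in either direction. The median log2 ratio was 0.06. Hsd17b6 stood at 7.87 TPM in replicate 2 against 1.81 TPM in replicate 1, and Hsd17b2, which oxidises estradiol and testosterone, at 10.8 TPM in replicate 2 and 3.68 in replicate 1. Dhrs9, a retinol and steroid dehydrogenase, was the lower one at 2.42 TPM in replicate 2 against 6.77 TPM in replicate 1. The liver markers moved in the same direction as Hsd17b6 and Hsd17b2, and their part was not tested. The most abundant were Hsd17b10 at 79.1 TPM in replicate 2 and 68.1 in replicate 1, Hsd17b4 at 73.4 TPM in replicate 2 against 66.8 TPM in replicate 1, Hsd17b12 at 54.5 TPM in replicate 2 and 55.1 in replicate 1, and Hsd17b11 at 25.6 TPM in replicate 2 against 17.1 TPM in replicate 1. Each of these lay below Akr1c18 and above Akr1c14 in both libraries.

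In the prostaglandin list, which bears on the prostaglandin F synthase activity known for Akr1b3 and Akr1b7 and on the prostaglandin F2-alpha receptor Ptgfr, 8 of 10 genes reached 1 TPM and 1 of 7 with enough counts lay more than 2-fold apart, beside 4.48% of all genes tested. The median log2 ratio was 0.26. That gene was Hpgd, which degrades prostaglandins, at 5.32 TPM in replicate 2 and 2.57 in replicate 1. Ptges3 stood at 47.0 TPM in replicate 2 against 52.7 TPM in replicate 1, Ptges2 at 30.5 TPM in replicate 2 and 29.4 in replicate 1, Ptgs1 at 4.32 TPM in replicate 2 against 3.78 TPM in replicate 1, and Ptges at 3.99 TPM in replicate 2 and 4.32 in replicate 1. Ptgfr stood at 0.28 TPM in replicate 2 against 0.08 TPM in replicate 1. Akr1b7 lay above the highest gene of the list in both libraries.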

How the data were processed

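Total RNA-seq of 2 libraries was analysed as 1 group. The authors' gene table and first transcript table came from transcriptome alignments (mm10, GENCODE M21, with tRNAs, ERCC spike-ins and phiX), per the file headers and notes, and their columns are named as in RSEM. As deposited by the authors, they hold expected counts, not normalised, TPM over all entries, spike-ins included, posterior means and SDs, and interval bounds of TPM. The authors' second transcript table was made from reads and an index, and its columns, estimated counts and TPM, are named as in kallisto. The aligner is not given in the sources used here, nor are software versions. Reads of both parental alleles were set against the C57BL/6J reference, and the tables hold no counts per allele.

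Depth was 38984236 expected counts in replicate 2 and 36982665 in replicate 1. The ratio of replicate 2 over replicate 1 used counts scaled by TMM (edgeR 4.0.16, R 4.3.3) on counts rounded to whole numbers. Log2 ratios carry a prior of 0.5 counts and folds none. The 95% interval of a fold is exact binomial (Clopper-Pearson) on the counts, and 3 counts served as the floor for a gene at 0. Calls over 2-fold needed a mean of at least 100 expected counts. Shared stretches and coding identity were computed in Python 3.11.15 with Biopython 1.88 on GENCODE M21 transcripts. Scripts were tested on simulated data. Alternatives were DESeq2 (1.42.0) size factors, library and spike-in totals, other thresholds and priors, rescaled TPM, the second table and each library alone. Members and lists were chosen with earlier results of these data known. Named were all 10 members, the 7 relatives, and of each pathway list the 4 highest genes and any outside 2-fold, with up to 3 highest of a marker list. Nr5a1 and Ptgfr were named outside this rule after their values were known.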

Additional observations from a re-analysis of the deposited data

How the results depend on the processing

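Akr1c6 and Akr1c14 kept their direction under every alternative run: Akr1c6 had a log2 ratio between 1.20 and 1.29 and Akr1c14 between 1.18 and 1.27 over scalings, prior and quantification, and Akr1b7 stayed between -0.38 and -0.30. With a mean of at least 10 counts, or no minimum, 3 members were more than 2-fold apart (Akr1c12 joined them), and with at least 1000 counts 0 of 6 were, because Akr1c6 and Akr1c14 have fewer counts. Over all genes the count of 591 (4.48% of 13188) became 1405 (7.73% of 18175) with at least 10 counts, 145 (2.56% of 5675) with at least 1000 and 7174 (12.9% of 55536) with no minimum. The second quantification put the Akr1b7 share of the summed TPM at 45.8%, against 51.1%, and the cause was not tested. Rescaling TPM over nuclear protein-coding genes moved all 10 mean levels, that of Akr1b7 to 1547 TPM. The second quantification also moved the mean level of 9 members, Akr1a1 to 487.5 TPM against 221.8 and Akr1b3 to 112.2 against 47.3, and the main transcript share of 7. Over genes its TPM lay higher by a median of 1.50-fold in replicate 2 and 1.60-fold in replicate 1. In each library alone, 10 members (replicate 2) or 9 (replicate 1) reached 1 TPM, the Akr1b7 share was 47.7% or 54.5%, and the log2 difference of Akr1b over Akr1c was 1.77 or 2.36. No ratio exists without both libraries. No paired analysis was possible because there is 1 group. Depth limits Akr1c12, with 76 counts in replicate 2 and 22 in replicate 1.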
